A study of Homo sapiens with 31 samples.

Results

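Back-splice reads of ion channel and glutamate receptor genes were examined in total RNA of H9 cells, a human embryonic stem cell line, during differentiation towards retina. The circRNAs were those whose named transcript belongs to a gene with a symbol of the calcium channel (CACNA, CACNB), potassium channel (KCN), sodium channel (SCN), glutamate receptor (GRIA, GRIK, GRIN, GRID, GRM), GABA receptor (GABR), TRPM, TRPC, HCN, ryanodine receptor (RYR) or inositol trisphosphate receptor (ITPR) families. The list held 322 of the 55371 circRNAs of the series, from 69 genes, and 3673 of the 1029205 back-splice reads. These are 0.582% of the circRNAs and 0.357% of the reads. The symbols alone also brought in transcripts that encode no channel, such as TRPC4AP, whose protein binds a channel, with 47 reads, and the antisense RNA KCNMB2-AS1 with 1 read.

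The libraries were made from 3 replicate cultures in each of 5 groups: undifferentiated cells at day 0, cultures without IGF-1 at day 45 and at day 90, and cultures given IGF-1 at day 45 and at day 90. IGF-1, a growth factor used to favour retinal differentiation, was given at 5 ng/ml up to day 37 and at 10 ng/ml afterwards. All cultures came from the single H9 line, and whole cultures were harvested without picking embryoid bodies, so cell types were mixed. Between 105685200 and 155002132 sequenced reads stood behind a library, with 14992 to 17929 back-splice reads at day 0 and 42858 to 108946 later. RNA integrity numbers were 9.8 to 10 at day 0, 7.6 to 9.1 at day 45 and 7.1 to 8.9 at day 90, and their part in the results was not tested. Levels are given as back-splice reads per 1000000 sequenced reads of the library (RPM), a scale on which 0 reads over the 3 day 0 libraries allow up to 0.00737 RPM, taking 3 reads as the limit. These limits, and the intervals below, cover counting error only. In such bulk samples, fewer cells of a type and less RNA per cell cannot be told apart.

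A circRNA forms when the splice donor at the end of an exon is joined back to the acceptor of the same or an earlier exon, and a read across that junction is the evidence counted here. Ion channels let sodium, potassium, calcium or chloride cross membranes, and the ionotropic glutamate receptors (GRIA, GRIK, GRIN) and GABA receptors open when a transmitter binds. Metabotropic glutamate receptors (GRM) act through G proteins, and ITPR and RYR proteins release calcium from internal stores. Neurons and photoreceptors use many of these genes, while embryonic stem cells use few. A back-splice count does not measure the linear mRNA, so a change in transcription and a change in the share of transcripts made circular cannot be told apart in these values.

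The junctions of the circRNAs on which the results turn are shown from the GRCh37 genome, whose positions are those of hg19, 5′ to 3′ on the transcribed strand. Each holds the last 20 bases of the donor exon in lower case and the first 20 bases of the acceptor exon in capitals. Exons carry the numbers of the transcript that names the circRNA, donor first. The first 3 show how TRPC1 circles of different size start at the same acceptor.
TRPC1 exon 4 to 2: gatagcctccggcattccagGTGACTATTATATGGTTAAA
TRPC1 exon 7 to 2: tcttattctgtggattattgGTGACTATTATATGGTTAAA
TRPC1 exon 9 to 2: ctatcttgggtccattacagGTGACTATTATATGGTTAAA
TRPM7 exon 5 to 2: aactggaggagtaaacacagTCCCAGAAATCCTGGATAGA
TRPM7 exon 10 to 2: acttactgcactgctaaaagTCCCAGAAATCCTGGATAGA
KCNK2 exon 5 to 4: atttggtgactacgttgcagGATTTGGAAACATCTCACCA
CACNA2D1 exon 3 to 2: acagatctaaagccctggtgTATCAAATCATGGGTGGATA
CACNA1A exon 9 to 8: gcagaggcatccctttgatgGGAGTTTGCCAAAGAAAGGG
CACNA1B exon 10 to 7: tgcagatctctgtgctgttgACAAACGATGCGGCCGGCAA
GRM8 exon 2 to 2: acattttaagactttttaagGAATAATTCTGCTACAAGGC
GRM4 exon 2 to 2: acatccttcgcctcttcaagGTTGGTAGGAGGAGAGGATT
GRIN2B exon 3 to 3: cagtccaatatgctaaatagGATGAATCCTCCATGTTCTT

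The capitals of the 3 TRPC1 junctions are the same bases, as are those of the 2 TRPM7 junctions, and only the lower-case donor exon tells these circles apart. The TRPC1 circles lie on chromosome 3 (+), at chr3:142455221-142467302 for exon 4 to 2, chr3:142455221-142503882 for exon 7 to 2 and chr3:142455221-142511809 for exon 9 to 2. The TRPM7 circles lie at chr15:50935537-50955243 and chr15:50923614-50955243 (−). The KCNK2 circle lies at chr1:215342542-215345526 (+), CACNA2D1 at chr7:81964451-81978965 (−), CACNA1A at chr19:13443683-13445307 (−) and CACNA1B at chr9:140846726-140852139 (+). GRM8 lies at chr7:126882749-126883569 (−), GRM4 at chr6:34100755-34101636 (−) and GRIN2B at chr12:13906251-13906849 (−). Exons of GRM8 and GRM4 hold the start codon and bases before it, and the other circles shown are coding throughout.

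A pair of the circles is short enough to print whole, assuming that every annotated exon between acceptor and donor is kept. They are shown because both were without a read at day 0 and had reads in all 12 later libraries. The CACNA2D1 circle of 199 bases joins exons 2 and 3 and covers codons 32 to 98 of its named transcript, and the CACNA1A circle of 173 bases joins exons 8 and 9 and covers codons 361 to 419. Capitals mark the 20 bases that follow the junction.
CACNA2D1 circle: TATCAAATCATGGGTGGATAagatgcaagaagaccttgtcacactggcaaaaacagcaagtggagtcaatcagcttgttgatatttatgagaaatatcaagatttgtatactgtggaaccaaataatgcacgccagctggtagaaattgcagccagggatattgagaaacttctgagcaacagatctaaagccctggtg
CACNA1A circle: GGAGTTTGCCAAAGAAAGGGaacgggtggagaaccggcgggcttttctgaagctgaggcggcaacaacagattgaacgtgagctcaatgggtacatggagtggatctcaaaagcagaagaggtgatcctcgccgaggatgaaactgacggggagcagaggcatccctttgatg

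The circRNAs were spread thinly over many junctions. Of the 322, 58 had at least 10 reads over the 15 libraries and could be tested singly, 137 had 1 read (42.5%, against 36.1% of all circRNAs), and 154 were found in at least 2 libraries. The only circRNA read in all 15 libraries was the TRPC1 circle of exons 4 to 2. The 10 genes with the most reads, TRPC1, TRPM7, CACNA2D1, CACNA1A, KCNK2, SCN8A, ITPR2, KCNT2, KCNH8 and GRM8 (tied with RYR1 at 67 reads), held 74.6% of the reads. Another 32 genes had under 10 reads each, and 14 of them had 1 read. At day 0, 69 circRNAs from 18 genes were read, 27 of them at no later time, 253 circRNAs had no day 0 read, and 51 of the 69 genes had none.

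Exon structure differed little in size from the rest of the series and more in the introns beside it, given here as a description. The median circRNA held 4 exons and 541 bases of exon, against 4 exons and 512 bases over the 48401 circRNAs assigned by their transcript. Introns were longer: the median intron was 11724 bases before the acceptor exon and 10705 bases after the donor exon, against 5374 and 4399 bases for all. Among circRNAs with at least 10 reads these medians were 21080 and 23573.5 bases, against 7533 and 6441 for all with at least 10 reads. Circles of a single exon made up 29 of the 322 (9.01%, against 4.6% of all), and 11 of the 58 with at least 10 reads (19%, against 5.20%). Of 317 circRNAs on coding transcripts, 303 (95.6%, against 88.1% of all) lay wholly in coding sequence, and 113 of these 303 had a length that is a multiple of 3. The AG and GT bases of a regular splice acceptor and donor bordered 319 of the 322 circles.

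Summed over all members, the level was higher after differentiation while the share of all back-splice reads was mostly lower. The sums were 0.625, 0.520 and 0.528 RPM in the 3 day 0 libraries and 3.39, 2.23 and 2.01 RPM at day 45. At day 90 they were 1.18, 2.22 and 2.56 RPM, with IGF-1 1.5, 2.33 and 1.90 RPM at day 45 and 2.39, 1.64 and 2.03 RPM at day 90. No later library overlapped day 0, and the mean at day 45, 2.55 ± 0.74 RPM (SD, n = 3), was 4.57 times that of day 0, 0.558 ± 0.058 RPM. As a percentage of the library's back-splice reads, the members held 0.520%, 0.490% and 0.413% at day 0, 0.345%, 0.344% and 0.330% at day 45, and 0.383%, 0.414% and 0.421% at day 90. The day 45 mean of that share was 0.717 times the day 0 mean, the opposite direction, and back-splice reads of all genes together were 6.33 times higher per sequenced read at day 45. No test was made of a sum over members.

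**Figure D1:**
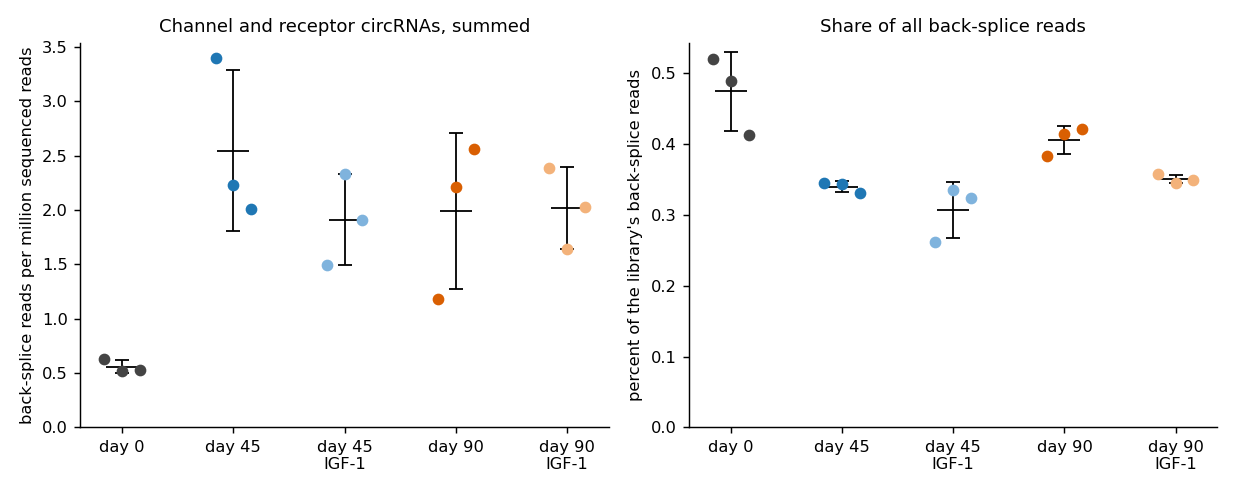
Summed level of the 322 channel and receptor circRNAs in each library, as reads per 1000000 sequenced reads (left) and as a percent of the library's back-splice reads (right). Points are libraries, horizontal marks the mean and bars the SD of 3; on the left all 12 later libraries (1.18 to 3.39) lie above the 3 day 0 libraries (0.520 to 0.625), and on the right the day 0 libraries lie highest or near it.

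Day 45 replicate 1 stood apart in its make-up. TRPC1 gave 15.2% of the member reads there, against 46.9% and 36.3% in the other day 45 cultures, and without TRPC1 the members summed to 2.88 RPM against 1.19 and 1.28 RPM. Back-splice reads of all genes were also highest there, at 984 RPM against 649 and 609 RPM. As a share of back-splice reads, the members without TRPC1 held 0.293% there, against 0.183% and 0.211%. KCNH7, KCNQ3 and CACNA1B were among the genes that were high in day 45 replicate 1. Counts of calls at day 45 are therefore also given without this library.

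**Figure D2:**
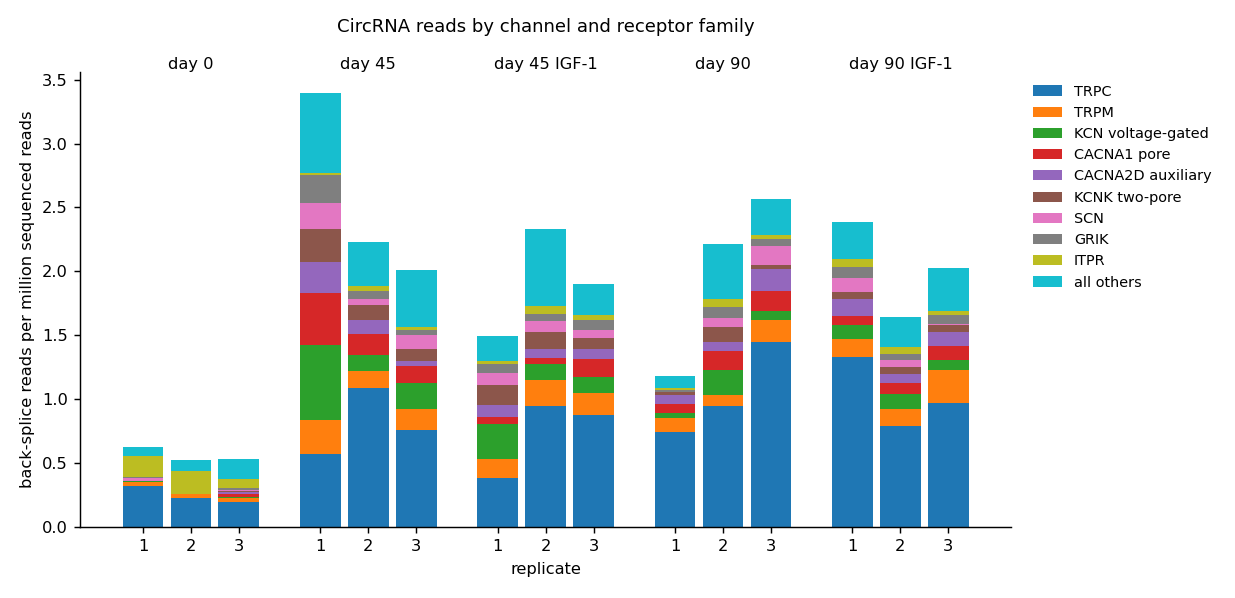
Reads per 1000000 sequenced reads in each library, stacked by gene family; each bar is a library and its height the sum over the 322 circRNAs. TRPC (blue) is the largest part of most bars, ITPR (olive) is visible mainly at day 0, and day 45 replicate 1 has the tallest bar (3.39) with wide parts for the potassium and calcium channel families.

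Single circRNAs were then compared between day 0 and day 45, the main step of the time course. With edgeR's quasi-likelihood test and Benjamini-Hochberg adjustment over 12498 circRNAs, 28 of the 58 members rose and 0 fell, which is 48.3%, and 40.9% of all circRNAs tested rose while 0.256% fell. The share of members called is therefore near that of the whole table and is no result about channels. For 23 of the 28, day 0 held no read. In 25 of the 58 members all 3 day 45 libraries lay above all 3 of day 0, against 46.2% of all circRNAs. Among members with enough reads for a ratio or a bound, the median log2 difference was 2.04, with bounds in place of ratios where day 0 was at 0, against 1.98 over all circRNAs. Without day 45 replicate 1, 20 members passed, and the median log2 change of all circRNAs was 2.48 against 2.87. Relative to back-splice totals (TMM) 6 rose and 1 fell, and the median log2 change of all circRNAs was 1.60 on that scale against 2.87. The share called over all circRNAs was not taken for these other fits, so their counts are no result about channels.

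At day 90, 13 of the 58 members were higher than at day 0 and 1 was lower, against 21.7% and 0.328% of all circRNAs. All 3 day 90 libraries lay above day 0 in 14 members, against 32.4% of all. Without day 90 replicate 2, 7 rose and 0 fell, and relative to back-splice totals (TMM) 4 rose and 1 fell. The median log2 change of all circRNAs was 2.33 in the main fit, 2.23 without that library and 1.54 with TMM. On sums per gene, 24 of 37 tested member genes rose from day 0 to day 45 and 1 fell, against 61.9% and 0.390% of 4616 genes, and without day 45 replicate 1, 18 rose and 1 fell. From day 0 to day 90, 16 rose and 2 fell, against 43.4% and 0.672% of all genes. Without day 0 replicate 2, 10 gene sums rose and 1 fell to day 90. No share over all circRNAs or genes was taken for fits that left out a library or used TMM. The counts from those fits are therefore no result about channels. Relative to back-splice totals (TMM), 1 gene sum, KCNK2, rose at day 45 while 3 fell, ITPR2 and GRM4 among them, and at day 90 KCNK2 and CACNA2D1 rose while ITPR2 and GRM4 fell. Gene sums of KCNK2 at both times, CACNA2D1 at day 90, ITPR2 at both times and GRM4 at day 90 thus passed the test with the same sign on both scales, as did the circRNAs TRPC1 exon 9 to 2, KCNK2 exon 5 to 4, CACNA1A exon 9 to 8 and CACNA2D1 exon 3 to 2 at both times.

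**Figure D3:**
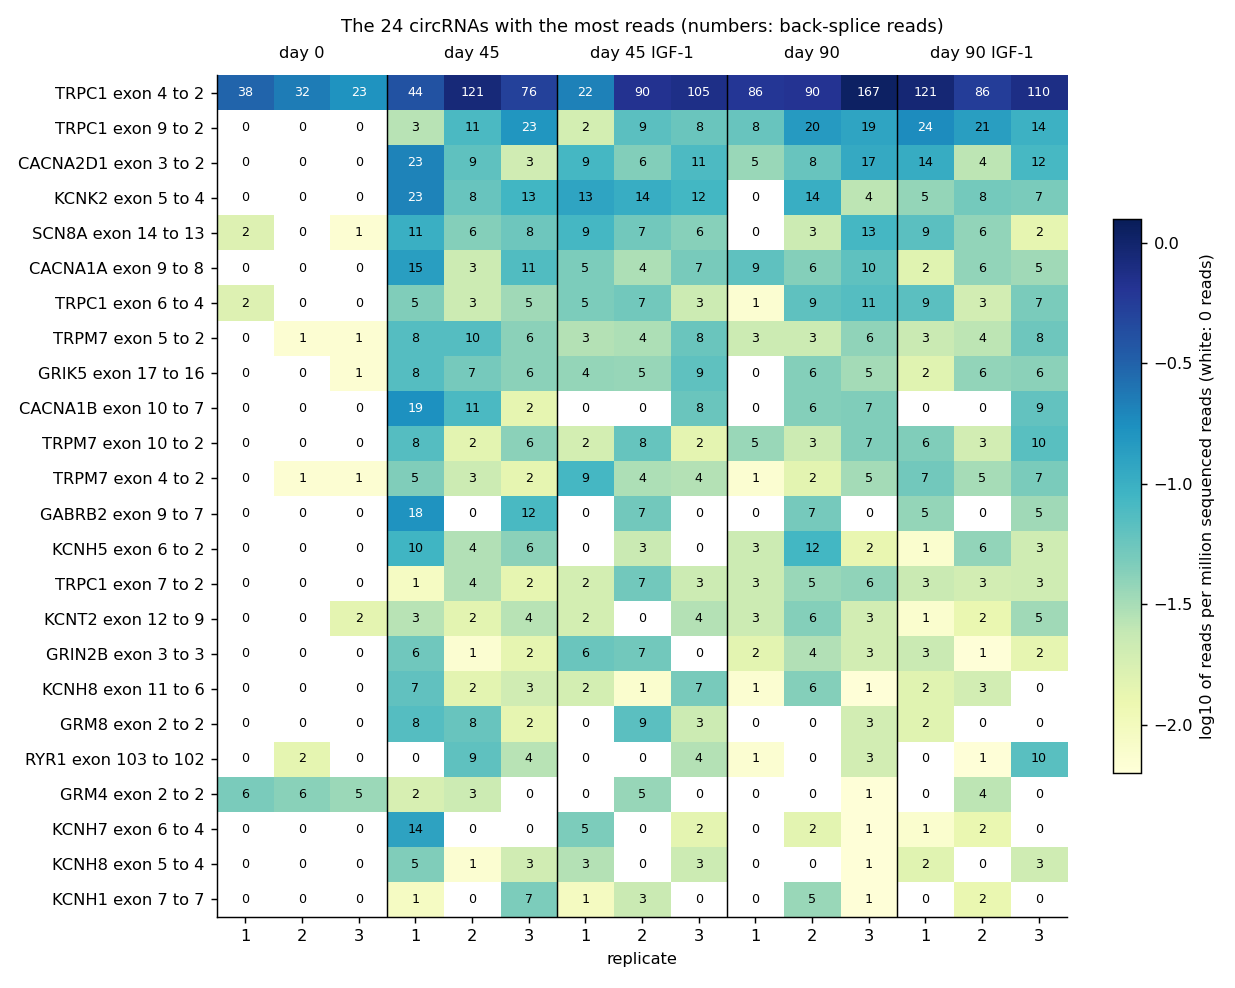
Back-splice reads of the 24 member circRNAs with the most reads, 1 row per circRNA and 1 column per library, with the read count printed and the colour giving log10 of reads per 1000000 sequenced reads (white: 0 reads). The TRPC1 circle of exons 4 to 2 is read in every column (22 to 167 reads), most other rows are 0 at day 0, and GRM4 is the row that is read in each day 0 library and rarely later.

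TRPC1, a subunit of calcium-permeable cation channels that open after receptor stimulation, gave 1550 of the 3673 member reads. Its exon 4 to 2 circle of 460 bases, coding for codons 58 to 211 of the named transcript, held 1211 of them. It was read 38, 32 and 23 times at day 0, 44, 121 and 76 times at day 45, and 86, 90 and 167 times at day 90. With IGF-1 the counts were 22, 90 and 105 at day 45 and 121, 86 and 110 at day 90. The 3 untreated libraries of day 45 and of day 90 lay above day 0 on the RPM scale, while IGF-1 replicate 1 at day 45, at 0.208 RPM, lay within the day 0 range. The log2 change was 1.37 (SE 0.42, adjusted p = 0.00549 by edgeR's quasi-likelihood test) to day 45 and 1.77 (SE 0.42, adjusted p = 0.000443) to day 90. The day 45 call was lost without day 45 replicate 2 (log2 change 0.99, adjusted p = 0.0792). Relative to back-splice totals (TMM) the day 45 change was −0.31 and did not pass (adjusted p = 0.516), so its direction depends on the scale.

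The longer TRPC1 circles of exons 9 to 2 and 7 to 2 had no day 0 read. Exon 9 to 2, of 1409 bases, was read 3, 11 and 23 times at day 45 and 8, 20 and 19 times at day 90, with IGF-1 2, 9 and 8 times at day 45 and 24, 21 and 14 times at day 90. All 12 later libraries held reads, and the level was at least 12.7-fold higher at day 45 (adjusted p = 3.43e-07, edgeR) and at least 14.8-fold higher at day 90 (adjusted p = 8.38e-08, edgeR), with the day 0 group set at 3 reads. Exon 7 to 2 had 1, 4 and 2 reads at day 45 and 3, 5 and 6 at day 90, and passed at both times (adjusted p = 0.025 and 0.00572, edgeR). Exon 6 to 4, numbered on another transcript, which does not use the shared acceptor, had 2 reads at day 0 and 13 at day 45, a ratio of 6.69 (95% counting interval 1.51 to 61.1, adjusted p = 0.038, edgeR).

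The share of TRPC1 reads held by the exon 4 to 2 circle was 95%, 100% and 95.8% in the day 0 libraries, 77.2%, 83.4% and 71.0% at day 45, and 84.3%, 69.8% and 78.8% at day 90. The 95% Wilson intervals of single libraries were wide, such as 79.8% to 99.3% in day 0 replicate 3 and 61.8% to 78.8% in day 45 replicate 3. The day 0 libraries did not overlap either later group, and the mean fell by 19.7 percentage points to day 45 and dropped by 19.3 to day 90. In a two-sided exact permutation test each difference had p = 0.1, the smallest that 3 against 3 libraries allow, and p = 0.3 after adjustment over the 6 comparisons made. This measure was chosen after its values were seen. Over all libraries, 8 circRNAs that start at the exon 2 acceptor held 92.2% of the TRPC1 reads.

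**Figure D4:**
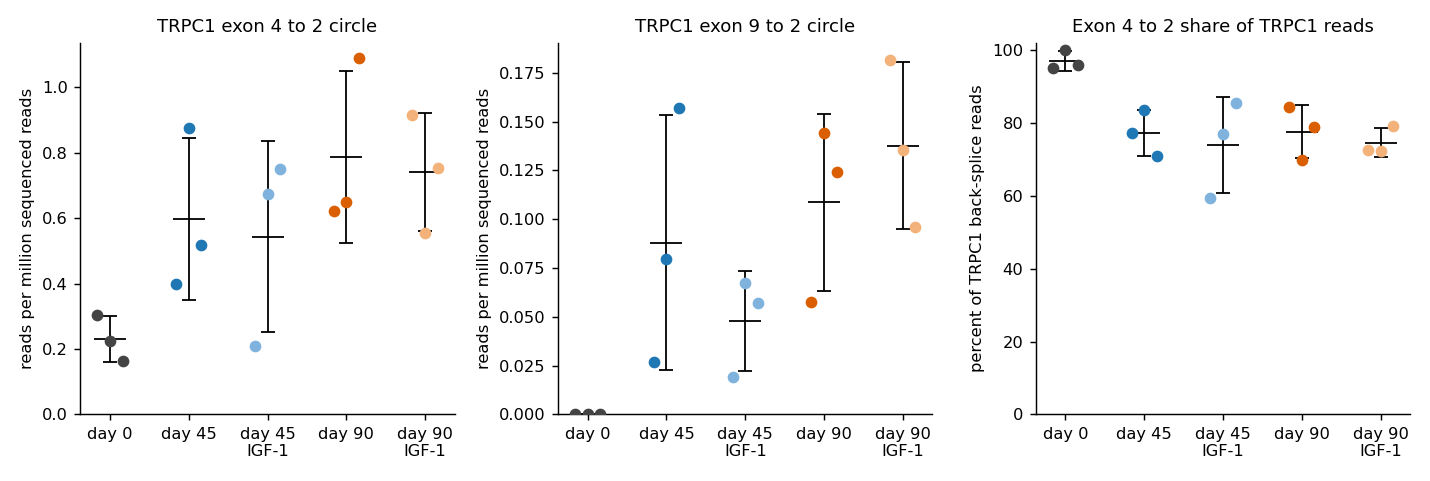
TRPC1 circles in each library: reads per 1000000 sequenced reads of exon 4 to 2 (left) and exon 9 to 2 (middle), and the percent of TRPC1 back-splice reads held by exon 4 to 2 (right). Points are libraries, horizontal marks the mean and bars the SD of 3; exon 9 to 2 is at 0 in the 3 day 0 libraries, and the share is 95% to 100% there and 59.5% to 85.4% later.

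TRPM7, a channel for magnesium and other divalent ions fused to a kinase, had 261 reads over 29 circRNAs. Its gene sum was 4, 4 and 5 reads at day 0, 29, 19 and 21 at day 45, and 13, 12 and 26 at day 90, and all later libraries of these groups lay above day 0. The log2 change was 2.45 (SE 0.56, adjusted p = 5.22e-05, edgeR) to day 45 and 1.85 (SE 0.58, adjusted p = 0.00488) to day 90, and the day 90 call was lost without day 90 replicate 3. The circle of exons 5 to 2, with the most reads among those assigned by transcript, had 2 reads at day 0 and 24 at day 45 (adjusted p = 0.00225, edgeR). The circle of exons 10 to 2 had none at day 0, 8, 2 and 6 reads at day 45 and 5, 3 and 7 at day 90, and passed both tests (adjusted p = 0.000704 and 0.0026, edgeR). TRPM1, which carries the light response of ON bipolar cells in the retina, had 21 reads, none of them at day 0. It was read 0, 0 and 3 times at day 45, 2, 0 and 0 at day 90, and with IGF-1 0, 3 and 4 times at day 45 and 1, 3 and 5 at day 90, and passed neither test.

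Among voltage-gated calcium channels, pore-forming CACNA1A (P/Q type) and CACNA1B (N type), both known for transmitter release at synapses, gave most of the 216 CACNA1 reads. CACNA1A exon 9 to 8 had 0 reads at day 0, 15, 3 and 11 at day 45, and 9, 6 and 10 at day 90. Its level was at least 9.95-fold higher at day 45 (adjusted p = 7.99e-06, edgeR) and at least 7.89-fold higher at day 90 (adjusted p = 9.03e-05, edgeR). CACNA1B exon 10 to 7 had 0 reads at day 0 and 19, 11 and 2 at day 45, but 0, 6 and 7 at day 90. With IGF-1 it was read 0, 0 and 8 times at day 45 and 0, 0 and 9 times at day 90, so that 5 of the 12 later cultures had none. It passed at day 45 (at least 11-fold, adjusted p = 6.54e-06, edgeR) and at day 90 (at least 4.10-fold, adjusted p = 0.00492, edgeR).

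CACNA1F, the L-type channel of photoreceptor terminals, was read at day 90 alone: 1, 6 and 3 reads without IGF-1 and 1, 2 and 0 with it, and 0 in the 9 libraries of day 0 and day 45. Its gene sum passed from day 0 to day 90 (at least 3.15-fold, adjusted p = 0.0248, edgeR) and did not pass from day 45 to day 90 (adjusted p = 0.265). CACNA2D1, an auxiliary subunit that carries channels to the membrane, was led by the exon 3 to 2 circle with 23, 9 and 3 reads at day 45 and 5, 8 and 17 at day 90. It was at least 12-fold higher at day 45 (adjusted p = 4.58e-07, edgeR) and at least 9.46-fold higher at day 90 (adjusted p = 1.15e-05, edgeR). The introns on either side of it are long, 93715 bases before exon 2 and 164525 bases after exon 3. CACNB4, the only beta subunit with reads, had 30, none at day 0 and 2, 2 and 4 at day 45 (adjusted p = 0.0138 for the gene sum, edgeR).

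KCNK2, a potassium leak channel that responds to stretch, was read from 2 junctions that share the exon 4 acceptor. Exon 5 to 4, of 348 bases and codons 159 to 275, had 0 reads at day 0 and 23, 8 and 13 at day 45. At day 90 it had 0, 14 and 4 reads, and with IGF-1 13, 14 and 12 at day 45 and 5, 8 and 7 at day 90. It was at least 15.1-fold higher at day 45 (adjusted p = 5.25e-08, edgeR), the smallest adjusted p of any member at that step. At day 90 it was at least 5.68-fold higher (adjusted p = 0.000419, edgeR), and that call was lost without day 90 replicate 2 (adjusted p = 0.0743), 1 of the 2 untreated day 90 cultures with reads.

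The voltage-gated potassium channels had 264 reads from 11 genes, of which 2 reads fell at day 0. KCNH genes (EAG, ELK and ERG types), which shape slow excitability, led the family. KCNH5 exon 6 to 2 had 10, 4 and 6 reads at day 45 and 3, 12 and 2 at day 90, none at day 0, and passed both tests (adjusted p = 0.00029 and 0.00178, edgeR), the day 90 one not without replicate 2 (adjusted p = 0.0664). KCNH8 was read 16, 4 and 8 times at day 45 against 1, 0 and 1 at day 0, a log2 change of 3.68 (SE 0.95, adjusted p = 0.000365, edgeR). For KCNH7 and KCNQ3, day 45 replicate 1 held 40.8% and 58.8% of the reads over all libraries. KCNH7 exon 6 to 4 had 14, 0 and 0 reads at day 45 and 5, 0 and 2 with IGF-1, so its call there (adjusted p = 0.00291, edgeR) rests on replicate 1. KCNQ3 exon 8 to 2, from a channel of the slow M-current, had 10, 1 and 2 reads at day 45, 4, 0 and 0 with IGF-1, and 0 in the 9 libraries of day 0 and day 90, and its call (adjusted p = 0.00735) was lost without replicate 1 (adjusted p = 0.147).

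Sodium-activated KCNT2 had 101 reads over 12 circRNAs, with 0, 1 and 4 reads at day 0, 8, 7 and 9 at day 45 and 5, 12 and 10 at day 90. Its gene sum passed at both times (adjusted p = 0.012 and 0.014, edgeR), and both calls were lost without day 0 replicate 1 or 2, the day 90 one also without day 90 replicate 2. The sodium channel SCN8A, the main one at nodes and axon initial segments of neurons, had 3, 0 and 1 reads at day 0, 22, 7 and 16 at day 45, and 0, 7 and 22 at day 90. Its log2 change was 3.45 (SE 0.76, adjusted p = 2.31e-05, edgeR) to day 45 and 2.62 (SE 0.79, adjusted p = 0.00362) to day 90, where the libraries overlapped day 0 and the call was lost without replicate 3 (log2 change 1.27, adjusted p = 0.327). The largest SCN8A circle, exon 14 to 13, had 3 reads at day 0 and 25 at day 45 (ratio 8.58, 95% counting interval 2.62 to 44.4). Its exon 5 to 3 circle had no day 0 read and 7, 1 and 4 reads at day 45 (at least 4.12-fold, adjusted p = 0.00914, edgeR), a call lost without replicate 1 (adjusted p = 0.0683). Of auxiliary potassium channel genes KCNAB1 led with 3 reads, none at day 0.

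Glutamate and GABA receptors had fewer reads than the channels. Among kainate receptors, GRIK5 exon 17 to 16 had 8, 7 and 6 reads at day 45 against 0, 0 and 1 at day 0, a ratio of 21.6 (95% counting interval 3.48 to 894, adjusted p = 0.0014, edgeR). At day 90 it had 0, 6 and 5 reads, and the gene sum passed there (adjusted p = 0.0336, edgeR) but not without any 1 of 4 libraries (day 0 replicates 1 and 2, day 90 replicates 2 and 3). The NMDA receptor subunit GRIN2B was led by a single-exon circle of 599 bases, codons 138 to 337, with 6, 1 and 2 reads at day 45 and 2, 4 and 3 at day 90 and none at day 0. It passed at day 45 (adjusted p = 0.0118, edgeR), though not without replicate 1 (adjusted p = 0.11), and at day 90 (adjusted p = 0.0252, edgeR), a call lost without any 1 day 0 library or day 90 replicate 2. The AMPA receptor GRIA1 had 19 reads, with a single-exon circle read 0, 0 and 2 times at day 45 and 4, 6 and 4 times with IGF-1, a difference that did not pass (unadjusted p = 0.0333, adjusted p = 1 by edgeR).

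Of the delta receptors, GRID1 exon 8 to 7 had 4, 3 and 3 reads at day 45 and none at day 0 (at least 3.43-fold, adjusted p = 0.0163, edgeR), a call lost without any 1 day 0 library (highest adjusted p = 0.0582). GABRB2, a beta subunit of the GABA-A receptor, was read in some cultures and not in others. Its exon 9 to 7 circle had 18, 0 and 12 reads at day 45 and 0, 7 and 0 at day 90, and with IGF-1 0, 7 and 0 at day 45 and 5, 0 and 5 at day 90. It passed at day 45 (at least 10.3-fold, adjusted p = 1.67e-05, edgeR), and at day 90 (adjusted p = 0.0386, edgeR) the call rests on the 7 reads of replicate 2. No GABA receptor gene had a day 0 read.

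The group III metabotropic receptors GRM8 and GRM4, which dampen transmitter release, gave circles of the same build, of which the first rose to day 45 and the other fell to day 90. Both are made of exon 2 alone and hold the start codon: the GRM8 circle has 821 bases and codons 1 to 170, the GRM4 circle 882 bases and codons 1 to 173. GRM8 had 0 reads at day 0 and 8, 8 and 2 at day 45 (at least 6.18-fold, adjusted p = 0.000937, edgeR), and then 0, 0 and 3 at day 90. GRM4 was read 6, 6 and 5 times at day 0, 2, 3 and 0 times at day 45, and 0, 0 and 1 times at day 90. With IGF-1, GRM4 had 0, 5 and 0 reads at day 45 and 0, 4 and 0 at day 90. From day 0 to day 90 the ratio of GRM4 was 0.0557 (95% counting interval 0.00133 to 0.355), a log2 change of −3.73 (SE 1.22, adjusted p = 0.0156, edgeR). The call was lost without day 90 replicate 2 (adjusted p = 0.0708) and in a fit with a sequencing quality term that left out day 90 replicates 1 and 2 (adjusted p = 0.407), and the change to day 45 did not pass (log2 −1.64, adjusted p = 0.144).

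ITPR2, a release channel for stored calcium, fell as a gene sum. The sum was 20, 26 and 9 reads at day 0, 1, 5 and 3 at day 45, and 3, 7 and 5 at day 90, with IGF-1 2, 7 and 5 at day 45 and 8, 8 and 5 at day 90. Neither untreated group overlapped day 0. The log2 change was −2.54 (SE 0.68, adjusted p = 0.000574, edgeR) to day 45 and −1.93 (SE 0.63, adjusted p = 0.00765) to day 90, and the latter was lost without day 0 replicate 2 (adjusted p = 0.0621) and in the fit with the quality term and without day 90 replicates 1 and 2 (log2 −1.60, adjusted p = 0.182). The reads came from 46 circRNAs, none with more than 9 reads, so that no single one could be tested. Of these, 31 had day 0 reads, 31 had later reads and 16 had both, and none started at the exon 2 acceptor. The calcium release channel RYR1 had 0, 2 and 5 reads at day 0 and 0, 13 and 4 at day 45, a change that did not pass (adjusted p = 0.179). Its leading circle, exon 103 to 102 with introns of 838 and 333 bases on its sides, was read in 8 of 15 libraries.

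**Figure D5:**
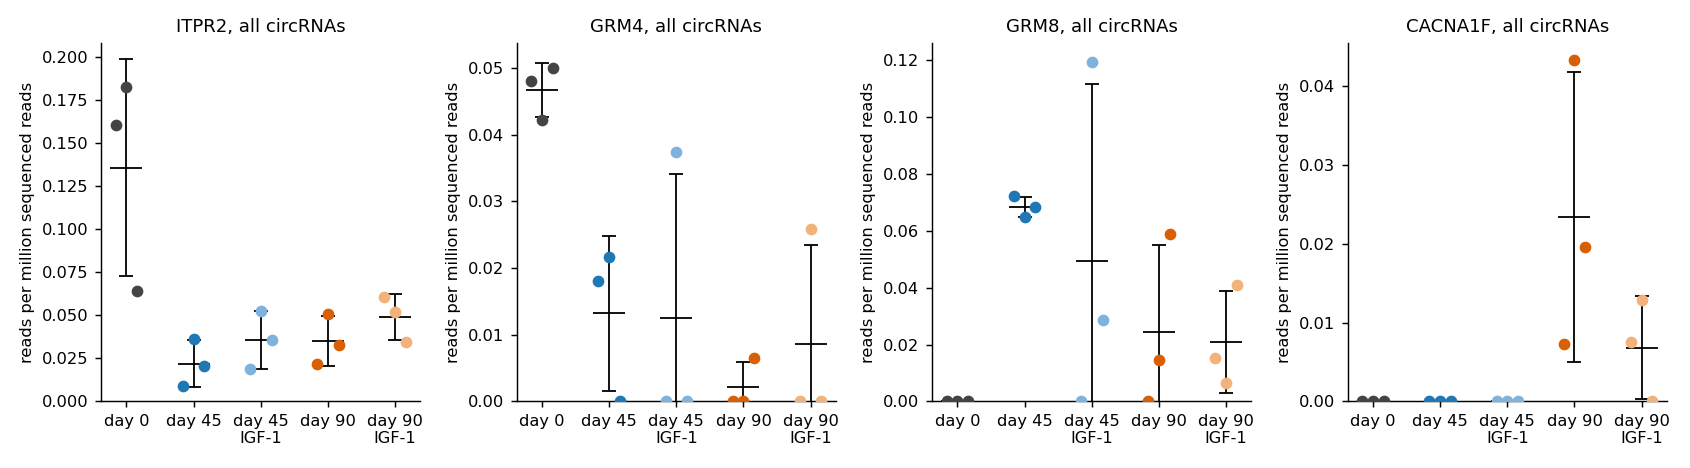
Reads per 1000000 sequenced reads summed over all circRNAs of ITPR2, GRM4, GRM8 and CACNA1F (left to right, each with its own scale). Points are libraries, horizontal marks the mean and bars the SD of 3, cut at 0; ITPR2 and GRM4 are highest in the 3 day 0 libraries, GRM8 has no day 0 read, and CACNA1F is read at day 90 alone.

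Between the later time points and with IGF-1, 0 members passed. From day 45 to day 90 no member circRNA was called (11 of 58 had an unadjusted p under 0.05, smallest adjusted p = 0.28, edgeR), against 0.08% of all circRNAs, and no member gene, against 0.282% of all genes. The same comparison under IGF-1 gave 0 circRNAs (10 with unadjusted p under 0.05), against 0.016%, and 0 genes, against 0.065%. IGF-1 against untreated gave 0 of 58 circRNAs at day 45 (10 with unadjusted p under 0.05), against 0.016% of all, and 0 at day 90 (1 with unadjusted p under 0.05), against 0.008%. On gene sums both were 0, against 0.0217% of all genes at each time. The difference between the effects of IGF-1 at day 45 and at day 90 was also tested, and 0 members passed (7 with unadjusted p under 0.05), against 0% of all circRNAs. DESeq2's Wald test called 0 members in each of these comparisons too. With 3 cultures a group and few reads a circRNA, such a result does not exclude even large differences. KCNH5 exon 6 to 2 had 10, 4 and 6 reads at day 45 and 0, 3 and 0 with IGF-1. Its log2 difference was −2.60 with an SE of 0.97 and an adjusted p of 0.898 (edgeR).

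A list of 60 genes was chosen by function. It held genes that bind, anchor or modify these channels, and some channels and receptors outside the member families, such as CNGB3 and GABBR2. Reads came from 34, and 28 could be tested: 19 rose and 0 fell from day 0 to day 45, and 19 rose and 0 fell to day 90. Of all gene sums, 61.9% and 43.4% rose in these comparisons. The active zone scaffold ERC1 led with 1203 reads, 7, 16 and 9 at day 0 and 207, 84 and 106 at day 45 (log2 change 3.75, SE 0.45, adjusted p = 6.13e-15, edgeR). HOMER1, a scaffold of metabotropic receptors, had 13, 11 and 14 reads at day 0 and 123, 53 and 51 at day 45 (log2 change 2.69, SE 0.45, adjusted p = 1.62e-08, edgeR). Over all gene sums tested the median log2 change to day 45 was 2.77, so HOMER1 lay near the general rise. CNGB3, a channel subunit of cones, had 0 reads at day 0, 0, 0 and 1 at day 45 and 4, 3 and 7 at day 90. In the IGF-1 cultures it was read 0, 3 and 2 times at day 45 and 6, 0 and 3 times at day 90. Its change from day 45 to day 90 without IGF-1 did not pass (adjusted p = 0.266, edgeR). With IGF-1, 1 partner passed at day 45: the synaptic scaffold SHANK2 had 46, 0 and 5 reads without and 0, 3 and 0 with IGF-1 (adjusted p = 0.00302, edgeR), so that replicate 1 alone held most of its reads.

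Back-splice reads of marker genes were low, and many defining markers had none. Of 25 retinal markers 8 had reads, summing to 0 RPM at day 0, 0.0451 to 0.0723 RPM at day 45 and 0.065 to 0.289 RPM at day 90, while RAX, PAX6, CRX and 14 others had none. Of 11 neuronal markers 8 had reads, with 0.00703 to 0.0357 RPM at day 0, 0.267 to 0.314 at day 45 and 0.137 to 0.346 at day 90. Pluripotency markers (7 of 12 with reads, POU5F1 and NANOG at 0) reached at most 0.0341 RPM in any library. They summed to 0.0214 to 0.032 RPM at day 0, 0 to 0.0341 at day 45 and 0.0131 to 0.0289 at day 90. These ranges overlap, and JARID2 was the gene with the most reads. Muscle and heart markers (5 of 9) reached at most 0.0434 RPM, and mesenchymal markers (8 of 9) 0 to 0.00713 RPM at day 0 and up to 0.0822 RPM later. The part of these cell types in the channel circRNAs was not tested.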

How the data were processed

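Total RNA was sequenced after rRNA depletion (stranded, paired 100-base reads) from 15 cultures of H9 cells. The authors ran PTESFinder on each library against GENCODE transcripts on hg19 and deposited raw back-splice read counts per circRNA and library, with no normalization and no pooling. Their processing notes also list FastQC 0.10, TopHat2 2.0.10, HTSeq 0.6.1, bedtools 2.17, CASAVA and Picard. Letters a, b and c of the library names were read as replicates 1, 2 and 3. Amplicon samples of another locus were not used here, and some genes of these families are not reported here.

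Gene symbols came from the named transcript in GENCODE lifted to GRCh37 (48401 of 55371 circRNAs), while 6746 matched by exon ends only, 185 matched several genes and 39 none. Library sizes were the study's sequenced reads, and the 2 day 90 libraries listed under 1 name were given their mean, 138564639. All 15 libraries were fitted with edgeR 4.0.16 in R 4.3.3 (quasi-likelihood, a mean per group, at least 10 summed counts, Benjamini-Hochberg over all 12498 circRNAs or 4616 gene sums, adjusted p under 0.05), after the steps were tested on simulated counts. SEs follow from the log2 change and F. Folds against a group without reads are bounds against 3 counts over the group. Replicates are cultures of 1 line, so p-values rest on the spread between cultures. That spread was estimated over all 5 groups together, not within the groups compared.

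The members and lists were chosen with earlier results of these data known. Named were the 10 genes with most reads, the leading gene and circRNA of each family, the 10 largest called rises to day 45 without overlap, up to 5 calls in another comparison or downwards, and the 5 circRNAs with most day 0 reads. KCNH7, TRPM1, CACNA1F, TRPC1 exons 7 to 2 and 6 to 4 and the partner genes fell outside that rule and were named after their values were seen. Alternatives were TMM and DESeq2 1.42.0 size factors, its Wald test, other filters, a replicate block, a sequencing quality term, other day 90 totals, members by exon ends, and each library left out.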

Additional observations from a re-analysis of the deposited data

Results flagged for a closer look

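Signal also lay outside the comparisons. A further 77 circRNAs matched channel genes by exon ends alone and held 578 reads, 8, 10 and 16 of them in the day 0 libraries and 22 to 83 in each later library. Of these, TRPM7 exon 29 to 26 had 84 reads, CACNA1E exon 6 to 4 had 60, TRPM7 exon 28 to 26 had 57, CACNA2D1 exon 10 to 7 had 53 and CACNA2D1 exon 12 to 8 had 43. Of the 60 reads of CACNA1E, 32 fell in day 45 replicate 1.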

How the results depend on the processing

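Scaling moved the counts most. With TMM, 7 member circRNAs were called at day 45 and 5 at day 90, and 4 gene sums at each time. With DESeq2 size factors these were 8, 7, 4 and 4. On these scales TRPC1 changed sign at day 45: its gene sum was −0.40 and −0.33, and its exon 4 to 2 circle −0.31 and −0.038. DESeq2's Wald test called 15 circRNAs at day 45, a minimum of 50 counts left 14 circRNAs and 14 gene sums called there, and no filter gave 9 circRNAs at day 90. The causes were not tested, apart from the fewer circRNAs tested under the stricter minimum. Shares called over all circRNAs and genes were taken for the main fit only, here and in the fits that follow.

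Leaving out a library gave 20 to 28 circRNAs at day 45 and 7 to 18 at day 90, 19 to 26 and 11 to 21 gene sums, and 0 to 1 gene sums from day 45 to day 90 (GABRB2 without day 90 replicate 2, adjusted p = 0.0383, edgeR). With circRNAs assigned by exon ends, 1 circRNA and 1 gene sum passed from day 45 to day 90, both CACNA1E (log2 −3.44 and −3.45). A replicate block gave 25 and 13 circRNAs and 23 and 18 gene sums, and 0 in the other comparisons. No source says that replicate numbers mark a shared batch, and no pair of groups had all 3 same-number correlations over 0.1, so the numbers were not taken to pair the samples. Between untreated and IGF-1 cultures of day 45, each library correlated best with its own number (r = 0.203, 0.0809 and 0.0809 over gene sums), and at day 0 and day 45 the numbers follow sequencing quality (replicate 1 lowest, replicate 2 highest). Without day 90 replicate 2, no value could be had for GABRB2 from day 0 to day 90. The fit with a quality term, which also lacked day 90 replicates 1 and 2, ended the day 90 calls of KCNT2, GABRB2, GRIK5 and KCNH5, and which change did so cannot be told apart.

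As a percent of back-splice reads the summed ratios to day 0 were 0.717 and 0.646 (day 45, untreated and IGF-1) and 0.856 and 0.740 (day 90). Leaving out a library gave 3.81 to 5.05, 3.05 to 3.8, 3.05 to 4.29 and 3.29 to 3.96. Within sequencing quality groups, IGF-1 cultures over day 0 gave 2.39 (low) and 4.48 (high) at day 45 and 4.59 (high) at day 90. Each of these ratios sets 1 library against 1 day 0 library and has no spread. With at least 10 counts, structure moved to a median span of 5396.5 bases, 19% single-exon circles, 31.0% at exon 2, and introns of 21080 and 23573.5 bases. Counts below 10 could not be tested singly.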
